A study of Mus musculus with 6 samples.

Results

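The primary cilium is a single antenna on the apical face of most kidney epithelial cells, built on a centriole and filled by transport along its microtubules. Nephrocystins and Meckel syndrome proteins form a gate at its base. The polycystins and fibrocystin sit in its membrane, intraflagellar transport (IFT) trains carry cargo along it, and the BBSome, named for Bardet-Biedl syndrome, carries membrane proteins. Inherited defects in these parts cause cystic kidneys, nephronophthisis and related ciliopathies. The genes described here are 36 symbols of this machinery, taken by name, of which 33 had a probe annotated with that gene alone, out of 18048 genes with such a probe. For a gene with several probes, the probe with the highest mean over the 6 arrays was used. Pkd2, which encodes the polycystin cation channel, Arl13b, a GTPase of the ciliary membrane, and Alms1, a centrosomal gene, had no such probe and were not analysed here.

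RNA came from kidneys of 3 mice homozygous for a mutation and 3 wild-type mice, all different animals, with 1 single-colour CodeLink array each. The kidneys of both genotypes were perfused with saline before freezing. No label or design text read here names the mutated gene, the strain, the age or the sex, so the labels could not be set against the targeted transcript. Values are intensities in multiples of the array median, and differences are on the log2 scale, mutant minus wild type, from a limma fit over 25833 probes. Most kidney markers were bright enough to be read. With a probe above the low-signal limit were 10 of 11 proximal tubule, 5 of 7 thick ascending limb and 8 of 8 principal cell markers. That limit was set from the values at 1.51 times the array median, and 9825 of the 14795 genes tested also lay above it. Replicate 1 of both genotypes stood apart in sex-linked transcripts. Xist, the RNA that coats the inactive X chromosome, read 7.98 in mutant replicate 1 and 4.64 in wild-type replicate 1, against 0.556 to 0.862 on the other 4 arrays, while the Y-linked Eif2s3y read 0.162 in mutant replicate 1 and 0.0435 in wild-type replicate 1, against 8.05 to 11.02 on the other 4 arrays. No gene of the set passed the test without these 2 arrays either.

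Many ciliary promoters carry an X-box, the element bound by RFX transcription factors. RefSeq promoters (GRCm38.p6, 250 bases before to 50 after the start) were in the table for 33 of the 36 genes. They were searched on both strands for a form of the X-box, GTNNCC and GNAAC separated by any 3 bases, where a match on one strand can overlap a match on the other. A match was present in 8 of 33 genes, or 24.2%, against 2.49% of 27025 genes with a promoter. The share was 27.8% (5 of 18) for axonemal genes of motile cilia, so it was not particular to this set. The 8 are printed because they show the element in genes of different complexes, each on the strand of its gene with the match in capitals.

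Ahi1, chr10:20952560-20952589, + strand: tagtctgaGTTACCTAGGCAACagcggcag
Bbs1, chr19:4906605-4906634, - strand: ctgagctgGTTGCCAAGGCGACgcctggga
Bbs4, chr9:59353464-59353493, - strand: ctcagctgGTCGCCCGGGAAACggtcggct
Bbs7, chr3:36613489-36613518, - strand: gcgccccgGTTGCCTTGGAAACcggccagc
Ift57, chr16:49699199-49699228, + strand: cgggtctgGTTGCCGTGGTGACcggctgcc
Mks1, chr11:87853183-87853212, + strand: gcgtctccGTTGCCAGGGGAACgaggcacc
Nphp4, chr4:152477903-152477932, + strand: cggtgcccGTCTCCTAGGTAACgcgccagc
Tmem216, chr19:10555723-10555752, - strand: tgtacgcaGTTTCCATGGGGACtgaacatg

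Ahi1, Mks1, Nphp4 and Tmem216 encode proteins of the ciliary gate, Bbs1, Bbs4 and Bbs7 encode BBSome subunits, and Ift57 encodes a transport subunit. Of the 8 matches, 4 began after the annotated start. A match is a description of letters and does not show binding.

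Differences between mutant and wild-type kidneys in these transcripts were mostly small and none passed the test. Of the 31 genes that passed the filter on dim probes, 0 rose and 0 fell past an adjusted p of 0.05 (limma with Benjamini-Hochberg adjustment over all probes), and 2 had an unadjusted p under 0.05. Over all 14795 genes tested, 5.68% rose and 1.59% fell, 7.27% in all, and 20.9% had an unadjusted p under 0.05. The background share of calls is low, so a count of 0 among 31 genes is not by itself a result about ciliary genes. The median difference was 0.02 against 0.08 over all genes, 16 fitted differences were positive and 15 negative, and the median absolute difference was 0.18 against 0.31. The negative share was 48.4%, against 42.5% of all genes. This even split depended on the scaling: after quantile normalization 9 were positive and 22 negative (71% negative, against 50.9% of all genes), and after cyclic loess again 9 and 22 (71%, against 51.1%). Under either of these scalings 0 genes were higher and 4 lower at an unadjusted p under 0.05, against 1 and 1 as scaled here, and none passed the adjusted threshold by limma. Of the 31 genes, 25 had a mean above the low-signal limit. As scaled here, 10.7% of all genes above that limit were called, against 0 of the 25. The median difference was 0.04 for the 25 against 0.10, and the median absolute difference 0.16 against 0.26.

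The precision can be read from the 95% intervals of the differences. For 23 of 31 genes (74.2%) the interval lay inside a 2-fold change either way, against 49% of all genes. For 16 of 31 (51.6%) it lay inside 1.5-fold, against 21.4% of all genes. Dim probes have wide intervals, and 25 of the 33 genes had a mean above the low-signal limit. Among those 25, 23 intervals lay inside 2-fold and 16 inside 1.5-fold, against 73% and 32.2% of the genes above the limit. The 2 intervals above the limit that reached past 2-fold were those of Cys1 and Ift140. Small changes could go undetected with 3 arrays per genotype, and larger ones could be missed too. A call needed an adjusted p under 0.05, and the intervals of Cys1 and Tmem67 excluded 0 without a call. Of the 30 genes measured on all 6 arrays, 0 were higher on every mutant array and 2 were lower on every mutant array, or 6.67% in all, against 17.1% and 8.75%, or 25.9% in all, of genes tested. The arrays measure whole kidney, in which fewer cells of a type and less RNA per cell cannot be told apart.

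**Figure D1:**
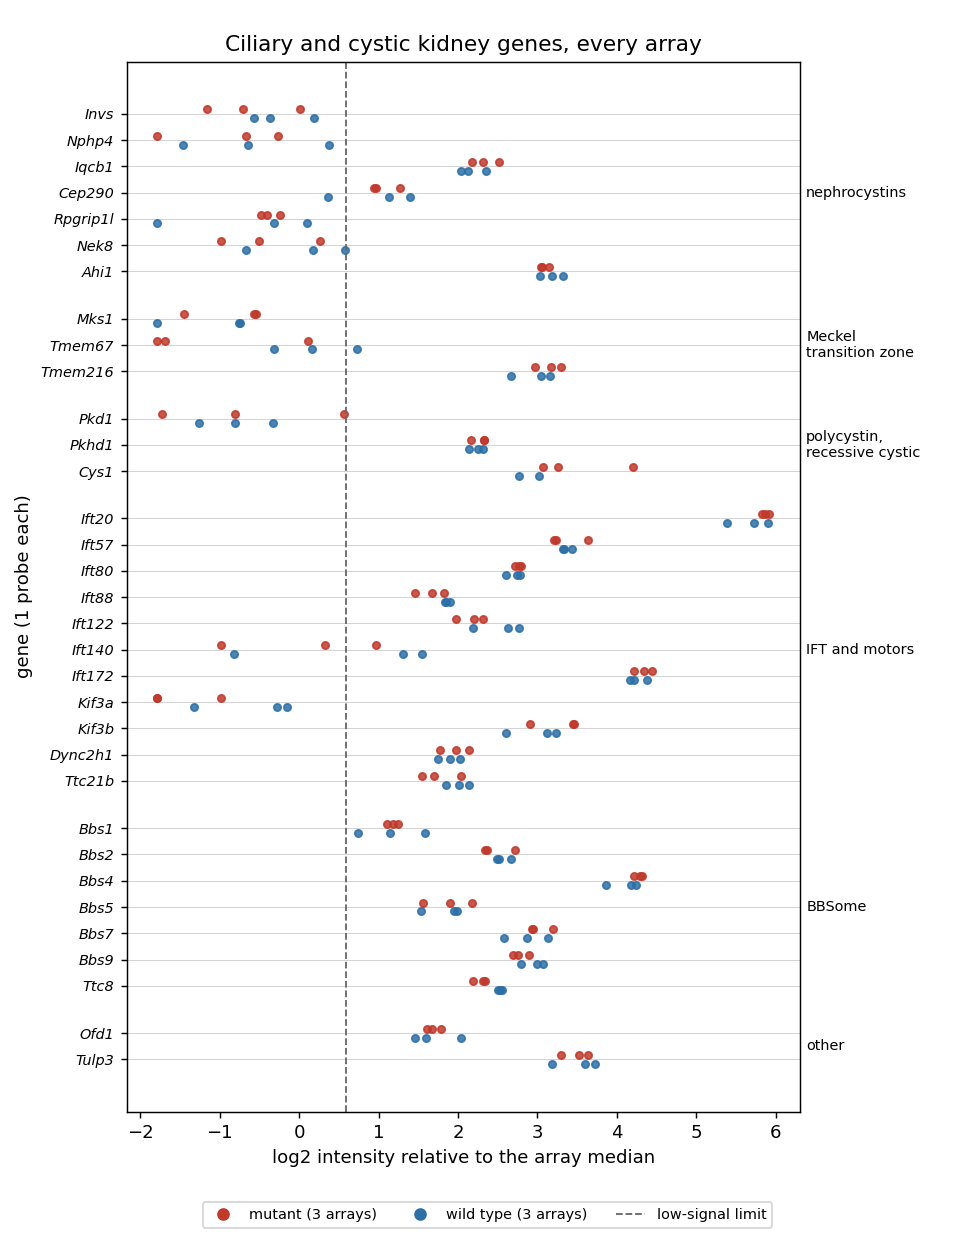
Log2 intensity relative to the array median (horizontal axis) of the 33 genes with a probe, 1 point per array, mutant above wild type in each row; the dashed line is the low-signal limit, and Cys1 has 2 wild-type points. The genotypes overlap in most rows, and 8 genes have a mean below the limit. Positions are not comparable between genes, since probes differ in brightness.

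**Figure D2:**
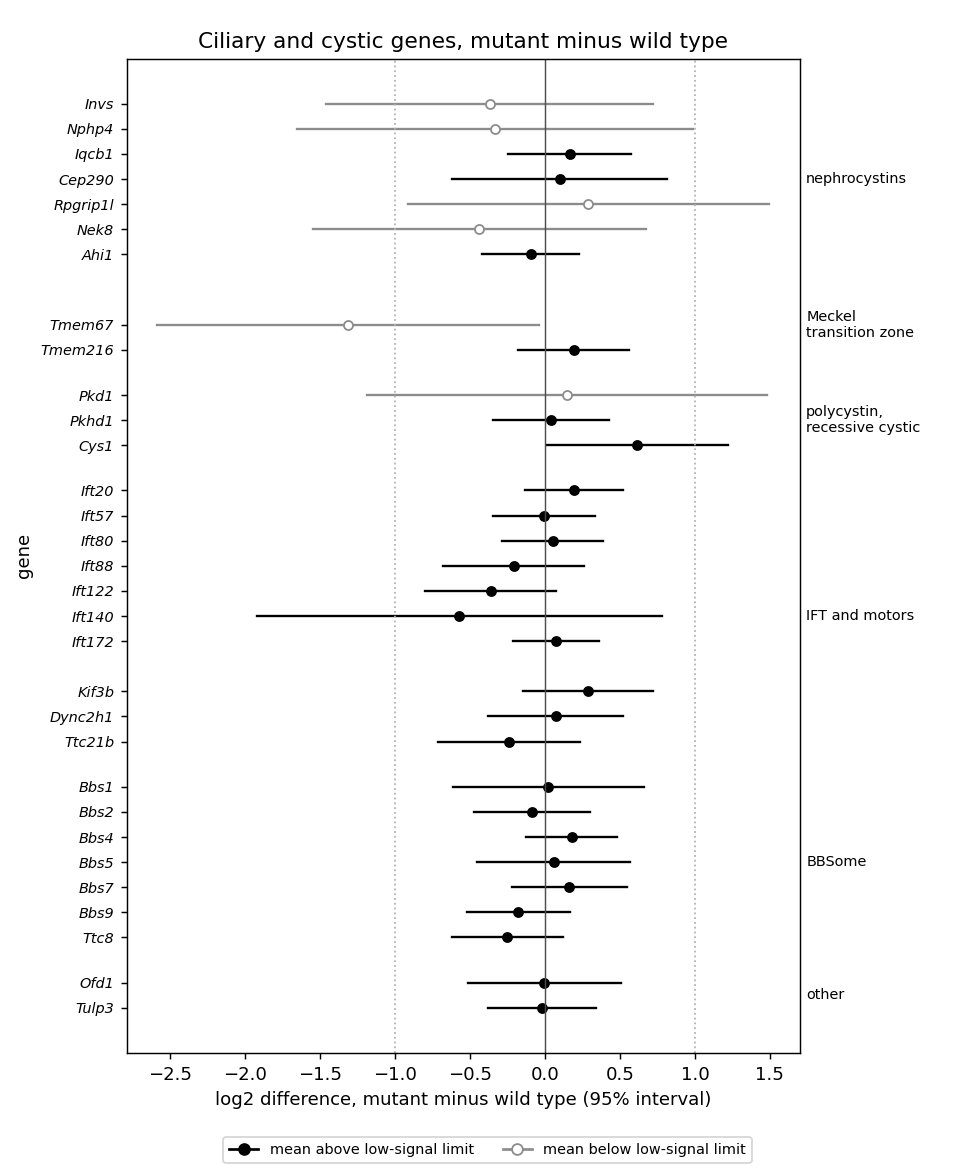
Fitted log2 difference, mutant minus wild type (horizontal axis), with its 95% interval for the 31 genes tested; dotted lines mark a 2-fold change, and open grey points are genes with a mean below the low-signal limit. The intervals that cross a dotted line belong to dim probes, Ift140 and Cys1, and 23 of 31 intervals lie between the dotted lines.

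Of the cystic disease genes of the ciliary membrane, Cys1 had the largest positive difference of the 31 genes tested, Pkhd1 lay near 0, and Pkd1 was too dim to be read. Cys1, which encodes cystin, a membrane-associated ciliary protein lost in the cpk mouse model of recessive cystic disease, read 9.54, 8.39 and 18.4 in mutant kidneys, against 8.08 and 6.81 in wild-type kidneys, with no value on wild-type replicate 3. The mutant arrays were all above the wild-type arrays, 2 of them narrowly, and mutant replicate 3 stood far above the rest. The difference was 0.62 ± 0.28 (SE), with a 95% interval of 0.02 to 1.22, and did not pass (limma, adjusted p = 0.28). Without mutant replicate 3 the difference was 0.27 (limma, adjusted p = 0.58). The replicate block, in which that array has no wild-type partner with a value, also gave 0.27 (limma, adjusted p = 0.48). In the other alternatives that kept that array it lay between 0.45 and 0.84 (limma, adjusted p between 0.17 and 0.55).

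Pkhd1, the gene of human autosomal recessive polycystic kidney disease, encodes the large membrane protein fibrocystin. It read 4.49, 5.04 and 5.01 in mutant kidneys, against 4.75, 4.40 and 4.99 in wild-type kidneys. The genotypes overlapped throughout, the difference was 0.04 ± 0.18, and its interval of -0.35 to 0.43 bounds the change at 0.785-fold to 1.35-fold. Pkd1, which encodes the receptor-like polycystin-1 of dominant polycystic disease, read 0.302, 1.48 and 0.573 in mutants, against 0.418, 0.794 and 0.571 in wild type, all below the low-signal limit. Its difference of 0.15 had an interval of -1.19 to 1.48, so a 2-fold change in either direction was not excluded.

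Among the nephrocystins 3 of 7 were bright enough to be read. Iqcb1, a calmodulin-binding protein of the transition zone, averaged 5.07 ± 0.590 in mutant kidneys and 4.52 ± 0.507 in wild-type kidneys (SD, n = 3 each). Ahi1, which encodes jouberin, averaged 8.48 ± 0.313 in mutants and 9.09 ± 0.906 in wild type. Cep290, a tether between the axoneme and the ciliary membrane, averaged 2.10 ± 0.274 in mutants and 2.04 ± 0.681 in wild type, with 1 wild-type array below the limit. The differences of these genes were 0.16 ± 0.19, -0.10 ± 0.15 and 0.10 ± 0.33 in that order, each smaller than its SE. The Ahi1 interval, -0.42 to 0.23, was the narrowest of the group.

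The other 4 nephrocystin genes, Invs (inversin), Nphp4, Rpgrip1l and the kinase gene Nek8, had readings between 0.251 and 1.49 and lay below the limit on all arrays. Their differences lay between -0.44 and 0.29, with intervals reaching from -1.65 to 1.49. Intervals of that width include a 2-fold change. Of the Meckel genes, Tmem216, a transition zone membrane protein, read 7.86, 9.81 and 9.01 in mutants, against 6.35, 8.23 and 8.94 in wild type. The groups overlapped and the difference was 0.19 ± 0.17. Mks1 was too dim to be tested, at 0.367 to 0.689 in mutants and 0.229 to 0.596 in wild type.

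Tmem67, which encodes the receptor-like meckelin, had the largest fitted difference of the 31 genes and one of the 2 unadjusted p-values under 0.05. It read 0.182, 1.08 and 0.309 in mutant kidneys, against 1.12, 1.65 and 0.805 in wild-type kidneys. Only 1 array, wild-type replicate 2, exceeded the low-signal limit, and mutant replicate 2 lay among the wild-type values. The fitted difference of -1.31 ± 0.59 did not pass (limma, adjusted p = 0.28). Over the alternatives it lay between -1.93 and -0.79, with an adjusted p between 0.12 and 0.57 by limma. Since both means were below the limit, no fold is given.

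**Figure D3:**
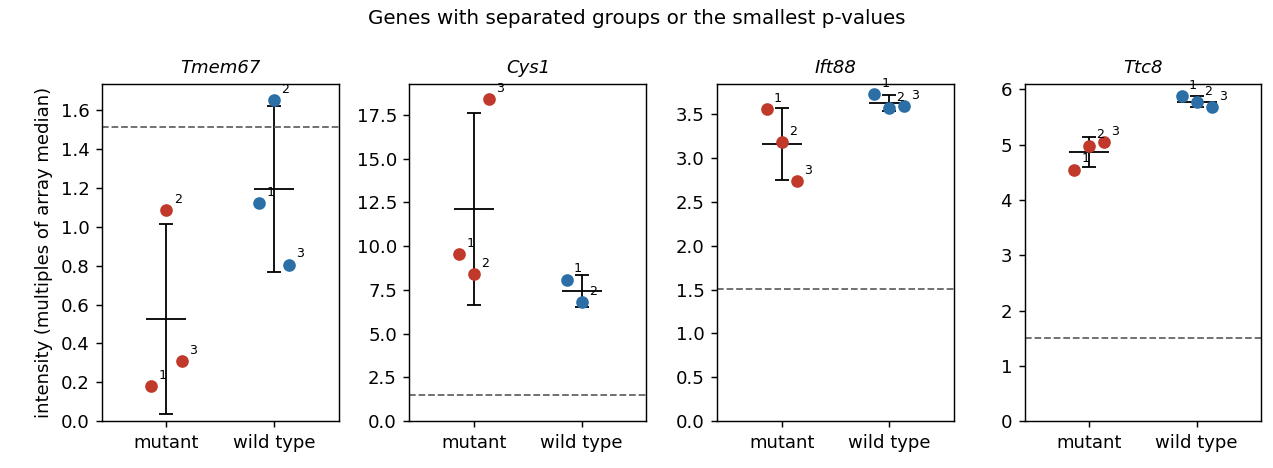
Intensity in multiples of the array median (vertical axis, from 0) of Tmem67, Cys1, Ift88 and Ttc8, with replicate numbers beside the points; bars are the mean ± SD over 3 arrays (2 for Cys1 in wild type), and the dashed line is the low-signal limit of 1.51. Mutant replicate 3 carries the Cys1 difference at 18.4, and the Ift88 and Ttc8 groups are separated by small steps.

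The intraflagellar transport group held 10 testable genes, 5 with a positive and 5 with a negative difference and a median of 0.02. After quantile normalization 2 were positive and 8 negative with a median of -0.12, and after cyclic loess 2 and 8 with a median of -0.11. Several subunits of the anterograde particle lay near 0. Ift20, which also works at the Golgi, read 56.6, 58.5 and 60.3 in mutants, against 41.9, 59.9 and 53.1 in wild type. Ift172, a large particle subunit, read 21.7, 20.2 and 18.6 in mutants, against 18.02, 20.8 and 18.6 in wild type. The groups overlapped for both genes, with differences of 0.20 ± 0.15 and 0.07 ± 0.13. Ift57 and Ift80, further subunits of the anterograde particle, differed by -0.01 ± 0.16 and 0.05 ± 0.16. Their second probes gave -0.10 ± 0.14 and 0.03 ± 0.19, so both probes of each gene were near 0. The second probes of Ift172, Ahi1 and Cep290 had means below the low-signal limit.

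Ift88, which encodes polaris, the subunit disrupted in the orpk cystic mouse, read 3.55, 3.18 and 2.74 in mutant kidneys, against 3.73, 3.57 and 3.59 in wild-type kidneys. It was the one transport gene with every mutant array below every wild-type array, and mutant replicate 1 lay narrowly under the lowest wild-type array. The difference was -0.21 ± 0.22 (limma, adjusted p = 0.70), with an interval of -0.68 to 0.26. The fitted differences of Ift122, Ift140 and Ttc21b, the retrograde particle subunits of the set, were negative. Ift122 read 3.92, 4.62 and 4.98 in mutants, against 4.55, 6.18 and 6.80 in wild type, and differed by -0.36 ± 0.20. Ttc21b differed by -0.24 ± 0.22, and Ift140 by -0.57 ± 0.63 with readings from 0.508 to 2.91 on both sides of the low-signal limit. None of the 3 passed (limma, adjusted p between 0.41 and 0.72), and the genotypes overlapped for each. Ift122 and Ttc21b were negative in every alternative run, between -0.53 and -0.13, as was Ift140, between -1.32 and -0.03. The sign was not shared by the whole retrograde particle, since its subunit Ift43, outside the set, rose by 0.52 ± 0.13.

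Motors of the cilium were measured through 3 probes. Kif3b, a motor subunit of the anterograde kinesin-II, read 7.51, 10.98 and 10.9 in mutants, against 6.06, 8.72 and 9.37 in wild type. Replicate 1 was the lowest array of each genotype, and the difference of 0.29 ± 0.20 did not pass (limma, adjusted p = 0.54). Its partner Kif3a was too dim to be tested, at 0.243 to 0.504 in mutants and 0.40 to 0.90 in wild type. Dync2h1, the heavy chain of the retrograde dynein, averaged 3.92 ± 0.486 in mutants and 3.72 ± 0.366 in wild type (SD, n = 3 each) and differed by 0.07 ± 0.21.

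All 7 BBSome genes lay above the low-signal limit on every array, and all 7 intervals lay inside a 2-fold change. Bbs4, which links the complex to centriolar satellites, read 18.5, 19.6 and 19.9 in mutants, against 14.5, 18.1 and 18.9 in wild type, and differed by 0.18 ± 0.14. Ttc8, the subunit also named Bbs8, read 4.55, 4.99 and 5.05 in mutant kidneys, against 5.87, 5.78 and 5.68 in wild-type kidneys. Its mutant arrays were all below the wild-type arrays with little spread in either genotype, and the difference was -0.25 ± 0.17 (limma, adjusted p = 0.52). Over the alternatives the Ttc8 difference lay between -0.40 and -0.19, and the adjusted p was at least 0.21. The other 5 subunits, Bbs1, Bbs2, Bbs5, Bbs7 and Bbs9, differed by -0.18 to 0.16, and their genotypes overlapped. Bbs7 and Bbs9 gave 0.16 ± 0.18 and -0.18 ± 0.16, opposite in sign and of similar size. Ofd1, a centriole protein, and Tulp3, an adaptor that brings membrane proteins into the cilium with the retrograde particle, differed by -0.0041 ± 0.24 and -0.02 ± 0.17.

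The 7 testable genes with an X-box match had a median difference of 0.02 and a range of -0.33 to 0.19. The 21 testable genes with a promoter but no match had a median of 0.04 and a range of -0.57 to 0.62. Genes of RFX factors and other ciliary regulators were mostly too dim to read, with 1 of 9 above the low-signal limit and 0 of 7 tested past the threshold. That gene was Rfx3, named after its values were seen, which read 10.7, 9.94 and 10.01 in mutants, against 8.38, 8.32 and 9.21 in wild type. The mutant arrays were all above the wild-type arrays, and the difference of 0.24 did not pass (limma, adjusted p = 0.44).

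Further genes of the same pathways numbered 112 tested, of which 5 rose and 1 fell, or 5.36% against 7.27% of all genes, with a median difference of 0.11. An X-box match was in 15 of 115 such genes with a promoter. Disease genes of the nephronophthisis and cystic groups held 4 of the 5 increases. They were 3 of 27 transition zone and nephronophthisis genes tested (11.1%) and 1 of 16 cystic genes (6.25%), against 5.68% of all genes. Counts this small are not by themselves a result about disease genes. Dcdc2a, a doublecortin-domain gene of nephronophthisis, read 15.96, 16.5 and 15.0 in mutants, against 3.56, 5.60 and 6.79 in wild type, a rise of 1.62 ± 0.21 (limma, adjusted p = 0.00029). Muc1, the mucin gene of an inherited tubulointerstitial kidney disease, read 29.4, 38.1 and 44.4 in mutants, against 13.1, 15.99 and 15.4 in wild type, a rise of 1.31 ± 0.16. The genotypes were far apart for both genes. Slc41a1, a magnesium transporter mutated in a nephronophthisis-like disease, rose by 0.79 ± 0.15, and the zinc finger gene Zfp423 rose by 1.20 ± 0.29. With no intensity trend in the variance, none of the 6 calls of the further genes held, with adjusted p between 0.07 and 0.27 by limma.

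The other 2 calls were 1 of 24 further transport and motor genes (4.17%) and 1 of 13 further BBS and Arf-like genes (7.69%). Of all genes 7.27% were called. Ift43, a retrograde particle subunit, read 29.4, 31.4 and 31.4 in mutants, against 20.4, 24.2 and 19.7 in wild type, and rose by 0.52 ± 0.13. Rab3ip, which encodes Rabin8, the exchange factor that activates Rab8 at the ciliary base, read 13.9, 14.1 and 13.3 in mutants, against 18.9, 24.3 and 21.0 in wild type, and fell by 0.63 ± 0.14. The genotypes did not overlap for either gene. Ift43 was not called without mutant replicates 1, 2 or 3 or wild-type replicates 1 or 3 (limma, adjusted p between 0.07 and 0.17). Rab3ip was not called without mutant replicates 2 or 3 or wild-type replicates 2 or 3 (limma, adjusted p between 0.058 and 0.066), and Zfp423 was not called without any one mutant array (limma, adjusted p between 0.08 and 0.13). Of 24 further transport and motor genes tested the median difference was 0.07 (quantile normalization gave -0.05 and cyclic loess -0.06), and of 13 further BBS and Arf-like genes it was -0.04.

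Cilium disassembly and centriole duplication genes were positive in 10 of 11 tested, or 90.9% against 57.5% of all genes, with a median of 0.44 and 0 calls. After quantile normalization or cyclic loess 9 of 11 were positive, and 5 of the 11 with a probe had a mean above the low-signal limit. Cycling cell markers were positive in 7 of 8 tested, with a median of 0.75, 0 calls and 5 unadjusted p-values under 0.05, and summed to 83.2 to 155 in mutants against 38.7 to 97.7 in wild type. Their part in the centriole gene values was not tested. Axonemal genes of motile cilia, which the kidney tubule is known to lack, were above the low-signal limit in 5 of 19 with a probe, and 0 of 14 tested were called.

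Markers of some other cell populations passed the test in the same arrays. Of the markers tested, 7 of 8 for fibroblasts and pericytes rose, with summed readings of 411 to 444 in mutants against 114 to 145 in wild type. Of macrophage markers 7 of 8 rose, with sums of 162 to 241 in mutants against 35.9 to 41.0 in wild type. Of injured tubule markers 4 of 5 rose, with sums of 204 to 225 in mutants against 42.7 to 61.4 in wild type. Proximal tubule markers fell in 5 of 11, with sums of 645 to 794 in mutants against 1233 to 1260 in wild type. Other lists held few calls. Thick ascending limb markers fell in 1 of 7, and distal convoluted and connecting tubule markers in 1 of 6. Endothelial markers rose in 1 of 6 and lymphocyte markers in 1 of 7, and 0 of 4 podocyte markers were called. Markers of the collecting duct, where Pkhd1 is known to be expressed, were called in 0 of 8 for principal cells and 0 of 8 for intercalated cells, with median differences of 0.13 and 0.11. After quantile normalization these medians were -0.01 and -0.02, and after cyclic loess 0.0024 and 0.0037. With 7.27% of all genes called, 0 of 8 is not by itself a result about these cells. The 30 ciliary genes measured on all arrays summed to 218 to 223 in mutants, against 188 to 229 in wild type, so the mutant arrays lay within the wild-type range. Sums over all genes tested did the same, at 173400 to 175100 in mutants against 157100 to 184000 in wild type. The range is therefore not particular to the ciliary genes, and Ift20 alone gave 41.9 to 60.3 of each ciliary sum. The lowest ciliary sum, 188, was that of wild-type replicate 1, so the lower end of the wild-type range rests on 1 array. That array also had the smallest share of probes above the low-signal limit, 37.6% against 39.7% to 41.7% on the others. Without it the median difference of the ciliary genes was -0.0846, against 0.0304 over all genes. The part of these cell type shifts in the ciliary readings was not tested.

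**Figure D4:**
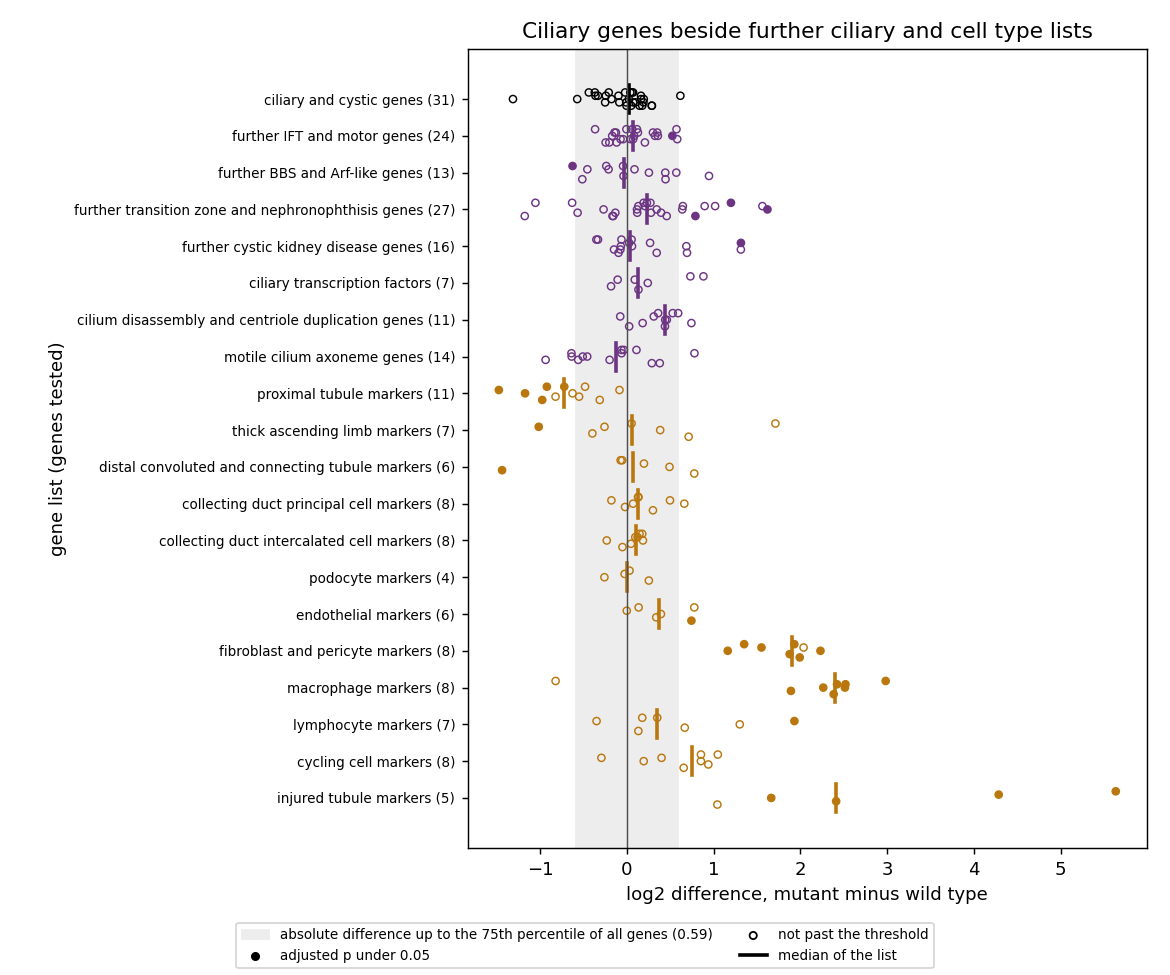
Fitted log2 difference, mutant minus wild type (horizontal axis), of each tested gene in the ciliary and cystic set (black), further ciliary lists (purple) and cell type lists (brown); filled points passed an adjusted p of 0.05, bars are list medians, and the grey band covers absolute differences up to the 75th percentile of all genes (0.59). The black points cluster around 0 with none filled, while fibroblast, macrophage and injured tubule markers sit at medians of 1.90, 2.40 and 2.41.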

How the data were processed

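The deposited file gives intensity values on a linear scale, 1 for each probe on each array, after processing by the authors. Per the labels' protocols, biotin-labelled cRNA was hybridised to CodeLink arrays. No source used here states the scanner software, the background method or the scaling step. Array medians of 0.994 to 0.997 and values down to -1.02 show background subtraction and scaling. Each array was divided by its median, values at or below 0 were set to missing (2.66% to 3.46% of an array), values under the 10th percentile of positive values (0.290) were raised to it, and log2 was taken. Probes with values on at least 2 arrays per genotype were kept and the dimmest 25% left out, which left 25833 of 34937. Limma 3.58.1 (R 4.3.3) compared the genotypes with an intensity trend, two-sided, with Benjamini-Hochberg adjustment over all probes. Intervals are 95% limma intervals for 1 gene at a time. The code was tested on simulated data. Precision is limited by the number of arrays.

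In the platform annotation 21590 probes had 1 symbol, 681 had several and 12666 had none. The 33 symbols with a probe matched RefSeq by gene identifier. Promoters came from RefSeq (GRCm38.p6). The low-signal limit (1.51, log2 0.60) is the mode of the linear values (0.523) plus 3 times the spread below it (0.329). The genes and lists were chosen with earlier results of these data known. All 36 symbols were named whatever their values. Of every other list, up to 4 called genes of smallest p could be named. Set tests were not run. Nothing in the labels says that equal numbers mark shared litters or days, so the numbers were not taken as pairs. Same-numbered arrays deviated together weakly, with correlations of 0.0719, 0.0199 and 0.0699.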

Additional observations from a re-analysis of the deposited data

How the results depend on the processing

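In each of 23 alternatives 0 ciliary and cystic genes rose and 0 fell, over 26 to 33 tested, and the smallest adjusted p of any of them by limma was 0.12. The alternatives at an adjusted p under 0.01 and under 0.1 reused the main fit. Its smallest adjusted p for these genes was 0.28 (limma), so they could not change this count. The sign of the difference held for 18 of 31 genes in each alternative that gave the gene a value, which for Cys1, Invs and Tmem67 was not every one. The median difference, 0.02 as reported, was -0.14 after quantile normalization, -0.12 after cyclic loess and -0.13 when both arrays of replicate 1 were dropped. Those scalings moved the median of all genes from 0.08 to -0.01 and -0.01, and the genes called over the whole table from 840 higher and 235 lower to 700 and 402, and 745 and 398. With no intensity trend they numbered 143 and 6, at an adjusted p under 0.01 456 and 88, and with both arrays of replicate 1 left out 500 and 209. With the replicate block they numbered 1084 and 364, and with replicate 1 against 2 and 3 as a covariate 1012 and 341. With arrays left out in turn the median lay between -0.0846, without wild-type replicate 1, and 0.0553. Further ciliary and cystic genes numbered 5 higher and 1 lower as reported. They numbered 0 and 0 with no intensity trend in the variance, 3 higher without both arrays of replicate 1, and 3 and 0 at an adjusted p under 0.01. Ift43 also missed with robust variance (limma, adjusted p = 0.0503), and Ift43 and Zfp423 without both arrays of replicate 1 (0.088 and 0.062). With arrays left out in turn 3 to 7 were higher and 0 to 1 lower. In the fit with no trend (limma), 10 of the 112 were higher and 2 lower at an unadjusted p under 0.05. The replicate block gave 0 and 0 calls, a median of 0.02, and 6 further genes higher and 1 lower, and in its deviations from the genotype mean every array correlated best, though weakly, with the array of its own number in the other genotype. That is a hint from the data, not from the design. Replicate 1 of both genotypes also shared the Xist and Eif2s3y pattern, whose part in these correlations was not tested. Signal over background limits the reading of the 8 genes below the low-signal limit.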
